A study of Mus musculus with 6 samples.

Results

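The contractile apparatus of mural cells, the smooth muscle cells and pericytes that wrap brain vessels, was described through 10 genes, Acta2, Tagln, Myh11, Cnn1, Myl9, Mylk, Tpm2, Des, Pln and Lmod1. The 10 were taken by symbol from the 32285 genes of the deposited matrix, and each symbol matched 1 gene. The counts came from single cells of the cortex of male RGS5::GFP het mice aged 8 to 12 weeks. In every group 1 allele of the mural cell gene Rgs5 is replaced by the reporter GFP. All mice had a permanent occlusion of the middle cerebral artery, a model of ischemic stroke, and mature neurons had been depleted. The 6 groups were the ipsilateral and the contralateral cortex taken 1, 12 or 24 h from the occlusion, with 1 library each. Every group thus came from an operated animal, the contralateral cortex included. The libraries are told apart only by a number from 1 to 6, and no source used here ties a number to a group. They were therefore kept as numbered libraries with no condition, and the cells were pooled as 1 sample, so no p-value was computed.

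Smooth muscle contracts when myosin filaments, built of heavy chains and light chains, pull on actin filaments. Calcium starts the cycle by way of calmodulin and myosin light chain kinase, which phosphorylates the regulatory light chain, and tropomyosin, calponin, transgelin and leiomodin bind the actin filament. In brain arterioles this apparatus sets vessel calibre, while pericytes of the capillaries carry less of it, and how far they contract has long been debated.

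In total, 17357 cells passed the filters, with 1221 to 5873 cells and a median depth of 5053 to 5660.5 UMIs per library. UMIs are barcodes on single RNA molecules that keep copies from being counted again, and the total over all barcodes of a library ranged from 12427757 to 40793772 UMIs. Clusters were named from marker genes that did not include the 10 genes, and the 10 genes were also kept out of the genes used for clustering. Names rebuilt in this way end in "-like". The smooth muscle-like class had 165 cells, with 2, 4, 35, 17, 51 and 56 cells in libraries 1 to 6, and the pericyte-like class had 854 cells, with 79, 79, 344, 149, 86 and 117. The markers that gave the names are described here and do not test them. The summed pericyte markers reached 27013 UMIs per 1000000 (CPM) in pericyte-like and 1316 CPM in smooth muscle-like cells. Of these sums, Vtn alone made up 18019 and 446 CPM. The summed smooth muscle markers were at 457 CPM in pericyte-like and 4479 CPM in smooth muscle-like cells. A further 104 mural cells in 3 subclusters stayed unnamed, since most cells of one were called doublets and the others also scored high for endothelial or oligodendrocyte markers. In all, 2007 of the 17357 cells held a UMI of any of the 10 genes. Between libraries, 26 cell barcodes were shared, 3 of them mural.

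CArG boxes, the sites that serum response factor binds in muscle genes, were looked for in the 250 bases before the start of each gene in RefSeq (GRCm38.p6), where 8 of the 10 genes have an entry. The box was read as CC, 6 bases with at most 1 G or C among them, and GG. Such a pattern reads the same on both strands, and 8.59% of 32851 promoter windows held one, 1.47% with only A and T in the core and 0.670% with 2 or more boxes. Acta2 and Myl9, the only 2 of the 8 genes with a box, held 2 boxes each, and all of these are shown. Each line gives 30 bases, 5′ to 3′ on the strand of the gene, with the box in capitals.
Acta2, 84 to 75 bases before the start, chr19:34255438-34255467, minus strand: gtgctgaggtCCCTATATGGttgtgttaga
Acta2, 34 to 25 bases before the start, chr19:34255388-34255417, minus strand: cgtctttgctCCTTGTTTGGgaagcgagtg
Myl9, 161 to 152 bases before the start, chr2:156775293-156775322, plus strand: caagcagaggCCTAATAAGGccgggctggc
Myl9, 99 to 90 bases before the start, chr2:156775355-156775384, plus strand: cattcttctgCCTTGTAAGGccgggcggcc
The first Myl9 box has only A and T in its core, and the other 3 boxes have 1 G or C. The Acta2 pieces lie in an exon of another annotated Acta2 transcript. Cnn1, Mylk, Tpm2, Des, Pln and Lmod1 had no such letters in this window, which says nothing of sites elsewhere, and Tagln and Myh11 have no entry.

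Contractile transcripts were gathered in the mural cells. Of 75458 UMIs of the 10 genes in cells, 74.0% lay in smooth muscle-like cells, 13.4% in pericyte-like cells, 8.25% in unnamed mural cells and 4.29% in all other cells. The summed level of the 10 genes was 44744 CPM in smooth muscle-like and 3355 CPM in pericyte-like cells, a ratio of 13.3 (exact 95% interval 13.1 to 13.6). In each numbered library the summed level was higher in smooth muscle-like cells, with ratios of 13.3, 20.8, 13.5, 14.3, 11.1 and 16.3 in libraries 1 to 6. CPM are the UMIs of a gene summed over the cells of a class, per 1000000 UMIs of that class, and all intervals cover counting error only. The smooth muscle-like values of libraries 1 and 2 rest on 2 and 4 cells.

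**Figure D1:**
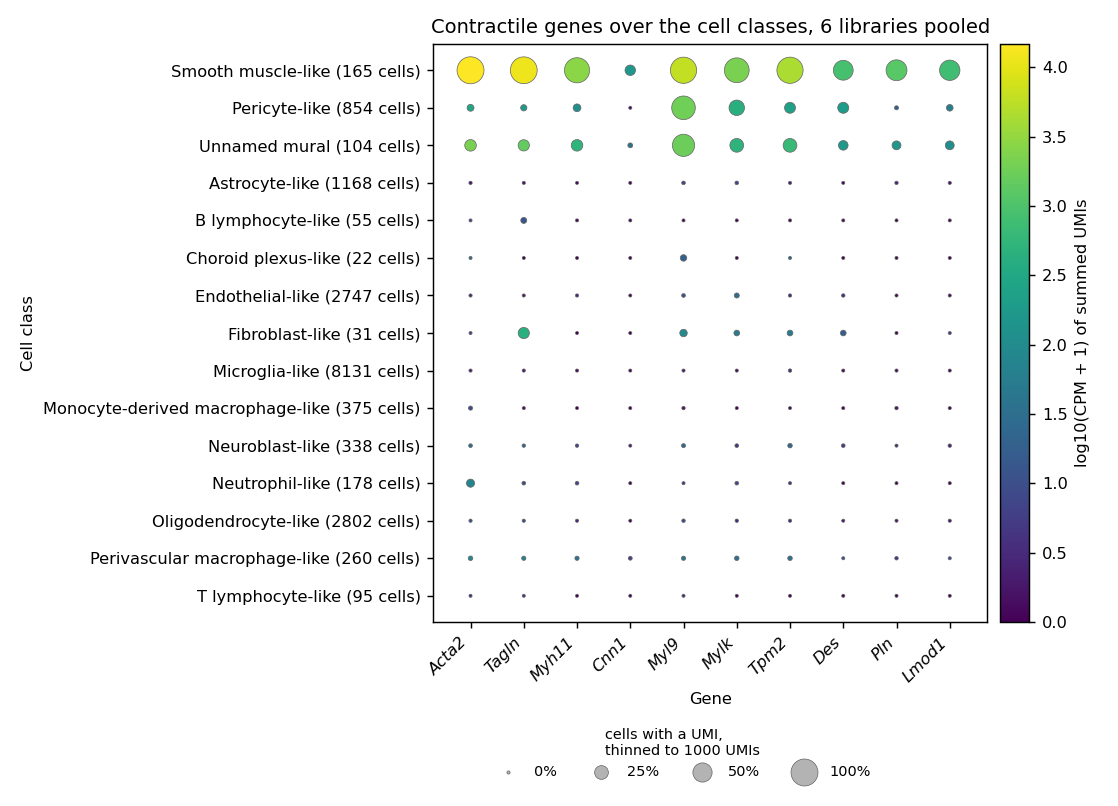
Level of each of the 10 genes (x axis) in each cell class (y axis), with the 6 libraries pooled; colour gives log10(CPM + 1) of summed UMIs and dot size the share of cells with a UMI after thinning each cell to 1000 UMIs. The smooth muscle-like row is highest for all 10 genes, and Myl9 is the gene most widely seen in pericyte-like cells, in 76.3% of them.

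All 10 genes were at least 2 times higher in smooth muscle-like than in pericyte-like cells. Of the 11332 genes with at least 10 UMIs in both classes together, 8.44% reached that ratio. The median ratio was 21.1 over the 10 genes and 0.732 over all genes compared. The ratios themselves ran from 3.31 for Myl9 to 494 for Cnn1, and the genes are taken below by their part in the apparatus.

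Acta2 (chr19:34241090-34255590, minus strand in GRCm38), the smooth muscle α-actin of the thin filament, was measured at 13925, 19491, 16589, 20268, 13347 and 12924 CPM in the smooth muscle-like cells of libraries 1 to 6. In the pericyte-like cells it was measured at 83.2, 48.4, 321, 579.9, 278 and 203 CPM. No pericyte-like value came near a smooth muscle-like value in any library, while the pericyte-like values themselves varied over a wide range, with libraries 1 and 2 lowest and library 4 highest. Pooled, the levels were 14732 and 306 CPM, and the ratio was 48.2 (45.1 to 51.5).

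Tagln (chr9:45929619-45936058, minus strand), which encodes the actin-binding protein transgelin, followed the same order. Its level was 10383, 14749, 13266, 13001, 11742 and 10144 CPM in the smooth muscle-like cells of libraries 1 to 6 and 54.1, 44.0, 175, 332, 199 and 122 CPM in the pericyte-like cells. The classes did not overlap, and libraries 1 and 2 were again lowest and library 4 highest among the pericyte-like values. The pooled ratio was 65.5 (60.1 to 71.4). Tagln, Mylk, Des, Pln and Lmod1 overlap genes on the opposite strand, such as Pcsk7 for Tagln. The strand setting of the counting was not given in the sources used here.

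Tpm2 (chr4:43514711-43523765, minus strand), the β-tropomyosin that lies along the actin filament, had a pooled level of 4309 CPM in smooth muscle-like and 237 CPM in pericyte-like cells. Its ratio was 18.2 (16.8 to 19.7) and ranged from 12.3 to 34.4 over the libraries. Lmod1 (chr1:135324807-135368065, plus strand), leiomodin 1, which nucleates actin filaments, was at 764 and 60.5 CPM, a ratio of 12.6 (10.8 to 14.9). In library 1 the Lmod1 interval reached down to 0.946 and so included 1, since the 2 smooth muscle-like cells there held 3 Lmod1 UMIs. Cnn1 (chr9:22099216-22109630, plus strand), the calponin that binds actin and slows myosin, was the sparsest of the 10 genes, with 204 UMIs in smooth muscle-like cells and 1 in pericyte-like cells. Its ratio of 494 therefore carried an interval from 87.8 to 19624, and in library 1 neither class held a Cnn1 UMI.

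The motor side gave other ratios. Myh11 (chr16:14194535-14291372, minus strand), the smooth muscle myosin heavy chain, was at 1771, 1920, 3407, 3010.0, 2714 and 2483 CPM in the smooth muscle-like cells of libraries 1 to 6 and at 83.2, 52.8, 112, 122, 204 and 97.4 CPM in the pericyte-like cells. Every library kept the classes apart, and the pooled ratio was 24.0 (21.5 to 26.9). Myl9 (chr2:156775420-156781658, plus strand), the regulatory light chain whose phosphorylation starts contraction, was at 6600.1, 7622, 5835, 6369, 6073 and 5881 CPM in smooth muscle-like and at 1971, 1704, 2106, 1664, 2043 and 1169 CPM in pericyte-like cells. The classes still did not overlap for Myl9, but the pooled ratio was 3.31 (3.20 to 3.43), and library 6 had the lowest pericyte-like level. Mylk (chr16:34745210-35002420, plus strand), the kinase acting on that light chain, was at 1932, 2385, 2349, 2764, 1846 and 2135 CPM in smooth muscle-like and 528, 405, 404, 315, 576 and 438 CPM in pericyte-like cells. Its pooled ratio was 5.08 (4.75 to 5.43), and the library ratios ranged from 3.21 to 8.78.

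Des (chr1:75360329-75368579, plus strand), the desmin of intermediate filaments and a gene long used to mark pericytes, was at 1690.3, 1076, 834, 715, 742 and 1063 CPM in smooth muscle-like cells of libraries 1 to 6 and at 187, 189, 145, 232, 236 and 246 CPM in pericyte-like cells. The classes did not overlap. Its ratio of 4.52 (4.08 to 5.0) was near that of Mylk, with intervals that met only between 4.75 and 5.0. Pln (chr10:53337667-53345987, plus strand), phospholamban, which restrains the calcium pump of the sarcoplasmic reticulum, was at 1203 and 16.2 CPM, a ratio of 74.2 (55.9 to 101). In pericyte-like cells the 49 Pln UMIs lay in 17 cells. Thus Myl9, Mylk and Des had ratios between 3.31 and 5.08, whereas Acta2, Tagln and Pln had ratios between 48.2 and 74.2.

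**Figure D2:**
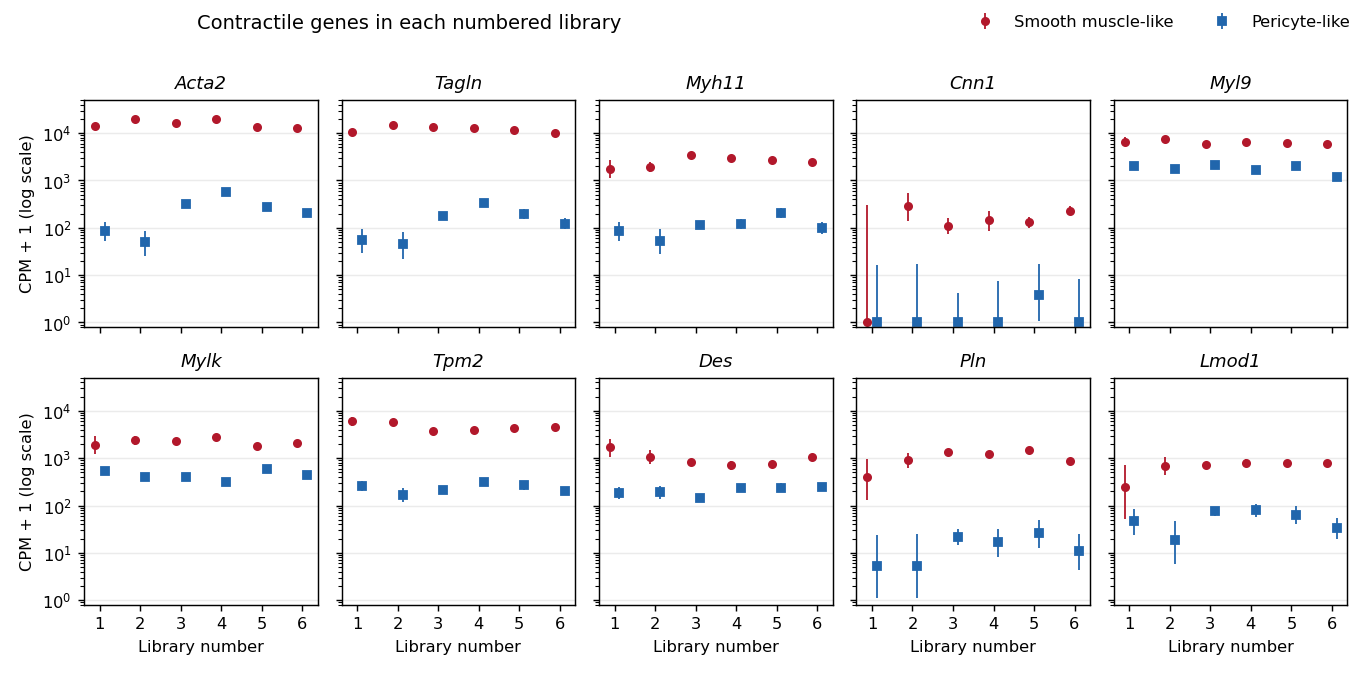
Level of each gene (CPM + 1 on a log scale, y axis) in smooth muscle-like cells (red circles) and pericyte-like cells (blue squares) of each numbered library (x axis), with exact 95% Poisson intervals. Smooth muscle-like values are above pericyte-like values in every library except for Cnn1 in library 1, where both are 0, and Myl9 has the lowest pooled ratio, 3.31.

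Shares of cells with a UMI were taken beside the levels. With every cell thinned to 1000 UMIs, 100% of smooth muscle-like cells and 5.27% (3.87 to 6.99) of pericyte-like cells held an Acta2 UMI. For Myl9 the thinned shares were 94.5% and 76.3% (73.3 to 79.2), and for Mylk 84.2% and 32.0%. Myl9 and Mylk were thus met in many pericyte-like cells, and Acta2 in few. Tpm2 and Des stood between, in 15.3% and 15.6% of thinned pericyte-like cells, while Myh11, Lmod1, Tagln and Pln were in 7.03%, 4.80%, 4.10% and 0.937%. No thinned pericyte-like cell held Cnn1, which allows a share of up to 0.351%.

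Without thinning, the pericyte-like shares were 92.7% for Myl9, 66.2% for Mylk, 38.8% for Des, 37.8% for Tpm2, 7.49% for Tagln, 7.14% for Acta2, 16.6% for Myh11, 13.7% for Lmod1 and 1.99% for Pln, at a median depth of 3314 UMIs. Microglia-like cells, which should lack these genes and of which 1 cluster was led by hemoglobin genes, had a median depth of 5150 UMIs, and their share ranged from 0.0246% for Cnn1 and Lmod1 to 1.40% for Tpm2. Each of the 10 genes had a higher share in pericyte-like than in microglia-like cells, although Cnn1 rests on 1 UMI in the pericyte-like cells. The same comparison was not made over all genes, so this describes the 10 genes without a background. Free RNA in barcodes with 1 to 50 UMIs held the 10 genes at 493 CPM, of which Acta2 made up 153 CPM.

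Within the pericyte-like class Acta2 and Tagln were carried by few cells. For Acta2, 10 of the 854 cells held 50% of its 925 UMIs, and for Tagln 10 cells held 50% of 542. For Myl9 the same share took 212 cells, for Mylk 149 and for Tpm2 62. Clustering of the mural cells placed the Acta2 UMIs in subclusters 4 and 7, which held 73.2% and 24.8% of them. Subcluster 4 had 80 cells, 46 of them in library 3, and subcluster 7 had 35 cells from all 6 libraries. No cell of either was called a doublet. The unnamed mural subcluster that scored high for oligodendrocyte markers had 0% called as well, so the call cannot settle whether these are single cells.

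In the 682 pericyte-like cells of subclusters 0, 1 and 3, grouped here after their values were seen, Acta2 was at 32.0, 0, 1.09, 0, 3.29 and 11.7 CPM in libraries 1 to 6. In subclusters 4 and 7 together it was 593, 880.1, 1586, 3342, 2016 and 2026 CPM. Subclusters 4 and 7 were thus higher in every library, although libraries 1 and 2 had only 7 and 4 of their cells. The values of those 2 libraries rest on 13 UMIs in 3 cells and 11 UMIs in 1 cell. The subclusters also followed the libraries, with 71.5% of subcluster 0 in library 3 and 66 and 68 of the 244 cells of subcluster 1 in libraries 5 and 6, while subclusters 1, 3, 4 and 7 had cells in all 6 libraries. Pooled over subclusters 0, 1 and 3, Acta2 was at 5.31 CPM (12 UMIs in 8 cells), Tagln at 3.54 CPM (8 UMIs) and Pln at 0.442 CPM (1 UMI). Myl9 stayed at 1903 CPM, in 96.5% of these cells, and Mylk at 415 CPM, in 66.3%. Against these cells the smooth muscle-like ratio became 2775 (1588 to 5372) for Acta2 and 3314 (1681 to 7678) for Tagln. It hardly moved for Myl9, at 3.17, or for Mylk, at 5.18. Subclusters 4 and 7 held 97.9%, 98.5% and 98.0% of the pericyte-like UMIs of Acta2, Tagln and Pln, so a rise without them was fixed in advance. With them included the ratios were already 48.2, 65.5 and 74.2. How large these ratios were thus depended on which cells the pericyte-like class takes in. Without subclusters 4 and 7, but with subcluster 5 still included, the ratios of Myh11, Tpm2 and Lmod1 also moved by more than 1.5 times, to 64.8, 31.4 and 31.2. Against subclusters 0, 1 and 3 alone they were 57.6, 29.8 and 28.8.

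**Figure D3:**
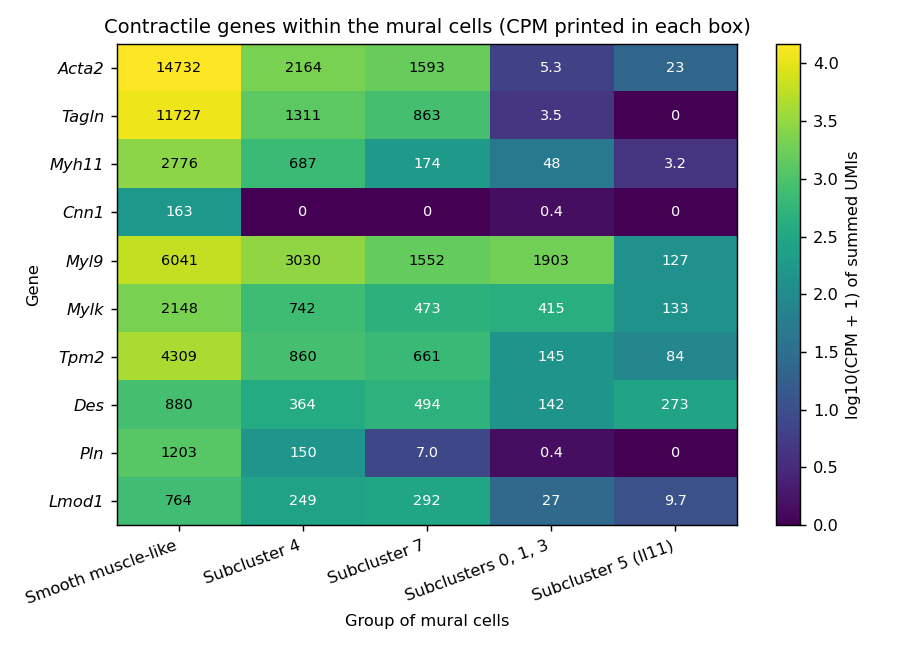
Level of each gene (y axis) in groups of mural cells (x axis), with CPM of summed UMIs printed in each box and log10(CPM + 1) as colour. Acta2, Tagln and Pln are near 0 in subclusters 0, 1 and 3, where Myl9 and Mylk are at 1903 and 415 CPM, and in the Il11-led subcluster 5 Myl9 is at 127 CPM while Des is at 273 CPM.

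Subcluster 4 was led by the pericyte marker Vtn and the mural cell gene Rgs5. Its summed pericyte markers were at 16632 CPM, against 35339.7, 29169 and 26412 CPM in subclusters 0, 1 and 3. Its summed smooth muscle markers, none of them among the 10 genes, were at 2139 CPM, against 284, 237 and 337 CPM in those subclusters and 4479 CPM in smooth muscle-like cells. Both marker lists thus moved with the contractile genes, and their part was not tested. Of its 80 cells, 37 held an Acta2 UMI and 43 held none. Compared with the other pericyte-like cells, 7 of the 9 contractile genes with at least 10 UMIs were at least 2 times higher there, beside 7.33% of the 10785 genes compared. Pln stood highest, at 150.2 against 0.737 CPM. Acta2 was at 2164 against 91.4 CPM, a ratio of 23.7 (20.4 to 27.5), and Myh11 at 687 against 49.8 CPM. Of the 248 Acta2 UMIs of the other pericyte-like cells, 229 lay in the 35 cells of subcluster 7, and Acta2 was at 5.31 CPM in subclusters 0, 1 and 3. The 2 genes short of the threshold were Myl9, with a ratio of 1.80, and Mylk, with 1.92. Without library 3, which held 46 of the 80 cells, these became 2.46 and 2.16 and passed it, and the ratios of Acta2, Tagln, Myh11, Lmod1 and Pln became 36.3, 54.1, 23.3, 10.9 and 329.5. Pln was at 377 without library 2. Des, at 2.08, fell short of the threshold without library 4 or 5, at 1.72 and 1.97. Subcluster 4 was chosen for its values, so these ratios describe it and test nothing.

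Subcluster 7, led by Vtn, Ifitm1 and the chemokine gene Ccl19, carried another mix. Myh11 was at 174 CPM, 0.253 times its level in subcluster 4 (0.160 to 0.384), or 0.141 times without library 3, and Pln, with 1 UMI, was 0.0463 times its level there (0.00115 to 0.271). For Acta2 and Tagln the libraries went different ways. Acta2 was at 2038 CPM in subcluster 7 and 1473 CPM in subcluster 4 of library 3, which held the most cells of both, but at 1946 and 4061 CPM in library 4. The ratio of subcluster 7 to 4 was 0.736 (0.631 to 0.857) for Acta2 and 0.658 for Tagln over all libraries, and 0.437 and 0.303 without library 3. Without that library the ratio of Tpm2 also moved, from 0.769 to 0.449. Des and Lmod1 had ratios of 1.36 (0.994 to 1.84) and 1.17 (0.786 to 1.73), higher in subcluster 7 of library 3 and lower in that of library 4, and 0.729 for Lmod1 without library 3. The summed fibroblast markers, with 4 and 3 of 6 detected, were at 1259 CPM in subcluster 7 and 237 CPM in subcluster 4. The summed pericyte markers were at 7084 and 16632 CPM. The part of either in these values was not tested. The name of subcluster 7 was itself a narrow call. Its fibroblast score was 2.99, just under 3, the limit at which a high non-mural score left a mural subcluster unnamed. The naming rules were set after seeing the data. Its 35 cells held 24.8% of the Acta2 and 22.9% of the Tagln UMIs of the pericyte-like class.

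Counted cell by cell, the 10 genes made up 0.576% to 8.24% of the UMIs of a smooth muscle-like cell, with a median of 4.55%. In pericyte-like cells the median was 0.256% and the highest value 5.84%. The classes overlapped, since 67 of 854 pericyte-like cells, 7.85%, reached the lowest smooth muscle-like value. By subcluster, the median was 0.626% in subcluster 4, 0.487% in subcluster 7, 0.268% in subcluster 1, 0.252% in subcluster 0, 0.184% in subcluster 3 and 0.0358% in subcluster 5.

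**Figure D4:**
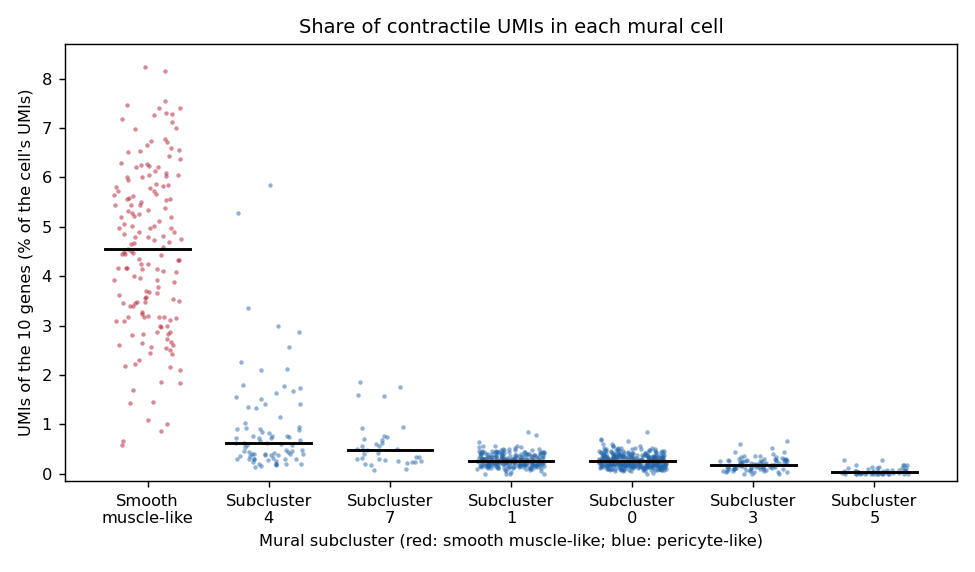
UMIs of the 10 genes as a share of all UMIs of each mural cell (y axis) by mural subcluster (x axis); each point is a cell and black lines are medians. Smooth muscle-like cells spread from 0.576% to 8.24%, subcluster 4 reaches into that range, and subcluster 5 lies lowest, with a median of 0.0358%.

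The lowest contractile level among pericyte-like cells was that of subcluster 5, whose leading genes were Il11, a cytokine gene, Vtn, Ednrb, an endothelin receptor gene, and Ccl11, a chemokine gene. Its 57 cells came from library 4 (24 cells) and library 6 (33 cells). It was singled out for its values, which are given as a description. Of the 9 contractile genes with at least 10 UMIs, 8 were at most 0.5 times the level of the other pericyte-like cells, beside 27.8% of the 10785 genes compared. The median ratio was 0.0673, that of Acta2, over the 9 genes and 0.816 over all genes compared. The other pericyte-like cells take in subclusters 4 and 7, which held 73.2% and 24.8% of the Acta2 UMIs of the class. Together they held 97.9%, 98.5% and 98.0% of the UMIs of Acta2, Tagln and Pln in the class. Tagln and Pln had 8 and 1 UMIs in subclusters 0, 1 and 3, and reached 10 UMIs only through subclusters 4 and 7. For Acta2, Tagln and Pln the call was thus set by the cells compared, and so was the median, which is the ratio of Acta2. The interval of the Pln ratio, 0 to 0.690, also passed 0.5.

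Myl9, the gene seen in most other pericyte-like cells, was at 173 CPM in subcluster 5 and 2048 CPM in the other pericyte-like cells of library 4, and at 99 and 1852 CPM in library 6. Both libraries gave the same direction, and pooled the ratio was 0.0629 (0.0447 to 0.0861). Mylk was at 69.1 and 378 CPM in library 4 and at 172 and 609 CPM in library 6. Tpm2 was at 129.5 and 367 CPM in library 4 and at 57.3 and 296 CPM in library 6. The kinase and the tropomyosin thus stood lower in subcluster 5 in both libraries. Tagln had no UMI in subcluster 5, where 3 counts would be 9.75 CPM. Against that floor it was 20.5-fold lower than the 199 CPM of the other pericyte-like cells, with an exact interval from 16.6 upward. Pln and Cnn1 had no UMI either, and Myh11 and Lmod1 had 1 and 3.

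For the genes carried by subclusters 4 and 7 the values turned on the cells compared. Acta2 was at 22.7 CPM in subcluster 5, from 7 UMIs that all lay in 1 cell, against 338 CPM in all other pericyte-like cells but 5.31 CPM in subclusters 0, 1 and 3. With 1 cell holding it, no difference of Acta2 from subclusters 0, 1 and 3 can be read. Tagln and Pln, without a UMI in subcluster 5, were at 3.54 and 0.442 CPM in subclusters 0, 1 and 3, both under the 9.75 CPM of 3 counts, so no difference from these cells was detectable at this depth. Myl9 and Mylk were lower in subcluster 5 by either comparison, with 1903 and 415 CPM in subclusters 0, 1 and 3. Tpm2 was at 84.5 CPM in subcluster 5 and 145 CPM in subclusters 0, 1 and 3 over all libraries. It was at 129.5 and 156 CPM in library 4, from 15 and 55 UMIs, and at 57.3 and 187 CPM in library 6. Library 4 thus showed no clear difference of Tpm2 from subclusters 0, 1 and 3.

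Des was the exception. It was at 259 CPM in subcluster 5 and 225 CPM in the other pericyte-like cells of library 4, and at 281 and 223 CPM in library 6. Within each library the intervals of the ratio, 0.741 to 1.75 and 0.866 to 1.83, included 1, while over all libraries it was 1.47 (1.15 to 1.85). The other pericyte-like cells again take in subclusters 4 and 7, where Des was at 364 and 494 CPM. In subclusters 0, 1 and 3 Des was lower than in subcluster 5 in both libraries. It was at 139 CPM there in library 4, from 49 UMIs beside 30 in subcluster 5. In library 6 it was at 137 CPM, from 35 UMIs beside 54. The summed pericyte markers were at 9811 CPM in subcluster 5 and 29169 CPM in subcluster 1, and the fibroblast markers at 1797 and 204 CPM. Of the 6 fibroblast markers 4 had UMIs in subcluster 5. Col1a1 and Pdgfra had none in the pericyte-like cells of libraries 4 and 6, where its cells lie. Both sums thus differed along with the contractile genes, and their part was not tested. Rgs5, which the mice carry with 1 intact allele, was at 910.0 CPM in subcluster 5 and 5242 CPM in subcluster 4.

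Among the 165 smooth muscle-like cells, the filament genes Acta2 and Tagln spread least. The upper quartile of Acta2, 19529 CPM, was 1.89 times the lower one, and for Tagln the same quotient was 1.84. It was 2.90 for Des and 3.10 for Pln, the latter with 15 cells at 0 UMIs and a median of 1051 CPM. A gene with fewer UMIs per cell spreads more from counting alone, so these quotients do not measure regulation alone. Across cells, Tagln and Myl9 had the highest correlation of the 45 pairs, with Pearson r = 0.606, followed by Acta2 with Myl9 at r = 0.578 and Acta2 with Tagln at r = 0.577. Des had r between -0.13 and 0.05 against the other 9 genes, and Cnn1 and Lmod1 were also low, with r of at most 0.16 and 0.13. Des had a UMI in 53.3% of the thinned cells and Cnn1 in 13.9%, and counting alone lowers r for such sparse genes. The cells share libraries and depth, and the values of r are given as a description.

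Outside the mural cells the 10 genes were low, and their mix differed by class. The fibroblast-like class, with 31 cells, had the highest summed level at 668 CPM, and pericyte-like cells were 5.02 times higher (4.23 to 6.01). Tagln made up 65.9% of the contractile UMIs of that class, at 440.1 CPM, beside 179 CPM in pericyte-like cells, while Acta2 had 1 UMI there. Of the 87 Tagln UMIs 48 lay in 1 cell, without which the level was 208 CPM and the pericyte-like sum 7.66 times that of the class. Tagln was thus found in fibroblast-like cells with hardly any Acta2, and its UMIs lay in 13 of the 31 cells. By library it had 1, 24, 0, 1, 0 and 61 UMIs in libraries 1 to 6, and without library 6 its level was 234 CPM.

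Endothelial-like cells held mostly Mylk. Mylk was at 60.0, 18.1, 28.6, 16.4, 41.4 and 20.4 CPM in their libraries 1 to 6, and it made up 59.7% of their contractile UMIs, compared with 12.6% in pericyte-like cells and 4.80% in smooth muscle-like cells. Mylk was found in every library, so it does not rest on 1 of them. It was highest in an endothelial-like cluster of 277 cells led by Mgp, Ly6c1 and Ly6a, with Gkn3, a gene known from arterial endothelium, among its top 10 genes. There Mylk reached 127 CPM (109 to 147) in 34.7% of cells, against 15.5 and 14.6 CPM in the other endothelial-like clusters, of which the larger was led by hemoglobin genes. The same cluster had Acta2 at 8.15 CPM.

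Neutrophil-like cells held mostly Acta2. Acta2 was at 62.5, 138, 79.9, 60.5 and 51.6 CPM in libraries 2 to 6, from 14, 22, 90, 5 and 47 cells, and library 1 had no such cell. The values of libraries 2 and 5 rest on 2 UMIs each. In all, 53 Acta2 UMIs lay in 35 of 178 cells, or 19.7% (14.1 to 26.3), at a median depth of 3126 UMIs, and 0.504% of microglia-like cells held one at 5150 UMIs. Thinned to 1000 UMIs, the shares were 7.87% and 0.0984%. Tagln had 5 UMIs, all in 1 neutrophil-like cell. In free RNA, Acta2 made up 30.9% and Tagln 19.9% of contractile UMIs, whereas in neutrophil-like cells the shares were 75.7% and 7.14%. The level of Acta2 in free RNA was 154.7, 136.9, 78.7, 330.3 and 141.6 CPM in libraries 2 to 6, near or above its level in neutrophil-like cells. The part of free RNA in the neutrophil-like values was not tested. Acta2 was likewise 78.1% of the 32 contractile UMIs of monocyte-derived macrophage-like cells.

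In perivascular macrophage-like cells, a cluster whose leading genes were the antigen presentation genes Cd74 and H2-Aa, the values rested on single cells. Acta2 was at 90.3 CPM, with 217 UMIs in 5 of 260 cells, and Myh11 had 60 of its 82 UMIs in 1 cell. Myh11 without that cell was at 9.23 CPM. In 2 of the 260 cells all 10 genes were found together.

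Other genes of the apparatus were read from 6 lists of 62 genes, of which 60 were in the matrix and 58 had at least 10 UMIs in smooth muscle-like and pericyte-like cells together. Of these, 27 were at least 2 times higher in smooth muscle-like cells, 4 were at most 0.5 times, and 27 lay between. The background over all genes was 8.44% for the higher and 26.1% for the lower call. The list median was 1.79.

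The anchors that tie filaments to the membrane and to each other had the highest list median, with 10 of 14 genes higher, none lower and a median ratio of 6.38. Palld, palladin, had a ratio of 34.2 and Csrp1, a LIM protein of actin bundles, 27.9, while Vcl, vinculin, was at 0.650 and the integrin Itga5, with 20 UMIs in all, at 0.606. Among thin filament genes 5 of 13 were higher and none lower. Nexn, nexilin, had a ratio of 24.2. The actin Actg2, with 22 UMIs and none in pericyte-like cells, was 17.8-fold higher against a floor of 3 counts over the class. Its exact interval ran from 13.3 upward. Cald1, caldesmon, and Tagln2 were below 1 without reaching the threshold, at 0.728 and 0.649. The median over all genes compared was 0.732, so Cald1 stood near it.

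The myosin list went both ways, with 2 of 5 genes higher and 1 lower. Myl6, the essential light chain, had a ratio of 5.85 and Myh10, a nonmuscle heavy chain, of 2.11. The Myh10 ratio rests on 20 and 23 UMIs, with an interval of 1.10 to 4.01 that included the threshold of 2. The nonmuscle heavy chain Myh9 was at 0.225 and Myl12a, a nonmuscle regulatory light chain, at 0.504. Myh9 and Myl12a were thus more abundant in pericyte-like than in smooth muscle-like cells, unlike Myh11 and Myl9. In light chain phosphorylation control 4 of 10 genes were higher and none lower. Ppp1r12b and Ppp1r12a, targeting subunits of myosin phosphatase, had ratios of 7.90 and 4.06, and Rhoa, a small GTPase, and Arhgef12, a guanine nucleotide exchange factor, of 0.795 and 0.992.

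Calcium handling had genes at both ends, with 4 of 10 higher and 2 lower. Kcnma1, the pore of the large-conductance potassium channel, had 58 UMIs in smooth muscle-like and none in pericyte-like cells. Against a floor of 3 counts it was 46.9-fold higher, with an exact interval from 36.9 upward. Ryr2, a calcium release channel, had 35 and 1 UMIs, a ratio of 84.8 (14.3 to 3445). Casq2, the calcium buffer calsequestrin, was lower in smooth muscle-like cells, at 54.5 against 355 CPM, and so was Atp2a3, a calcium pump, at 68.9 against 294 CPM. Pln, by comparison, was at 16.2 CPM in pericyte-like cells. In subcluster 5 Casq2 was at 32.5 CPM and Atp2a3 at 9.75 CPM, compared with 403 and 345 CPM in subclusters 0, 1 and 3. In subcluster 7 Casq2 had no UMI and Atp2a3 had 2, at 13.9 CPM, while subcluster 4 held them at 492 and 332 CPM. Low levels of both were thus not particular to subcluster 5.

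Of the transcription factors and cofactors known to control these genes, 2 of 6 measured were higher and 1 lower. Myocd, the cofactor myocardin, had a ratio of 24.5 from 91 and 9 UMIs, and Klf4 of 19.8. Srf, which binds the CArG box together with myocardin, was at 0.826 with an interval of 0.427 to 1.51 that included 1. Foxo4 was at 0.485 from 24 UMIs, with an interval of 0.120 to 1.45 that also included 1.

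**Figure D5:**
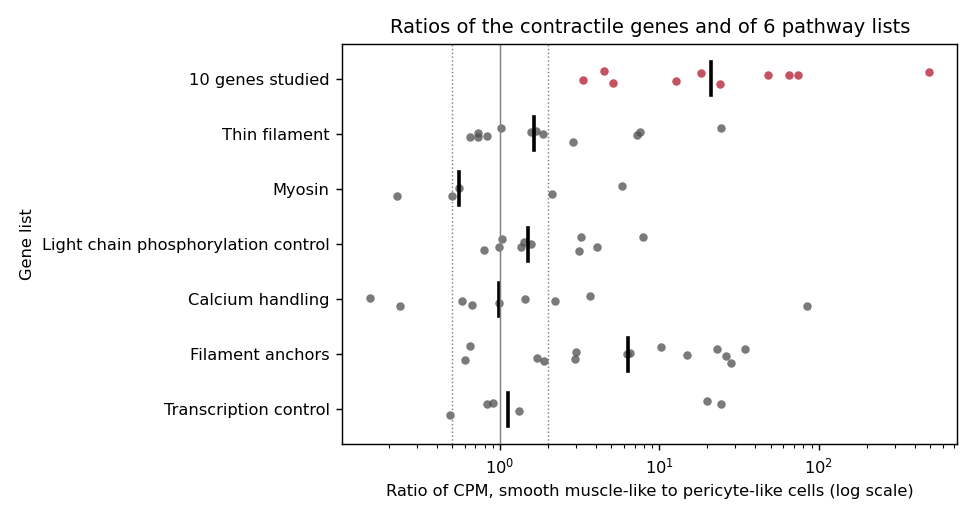
Ratio of CPM in smooth muscle-like to pericyte-like cells (log scale, x axis) for the 10 genes (red) and 6 pathway lists (grey, y axis); each point is a gene with at least 10 UMIs, black bars are medians of the points drawn, the solid line marks equal levels and the dotted lines 0.5 and 2. Actg2 and Kcnma1, with no UMI in pericyte-like cells, are not drawn; all 10 genes lie right of 2, and the filament anchors come nearest to them.

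The genes whose pattern was most like the sum of the 10 were sought over 22 cell classes and mural subclusters, by Pearson r of log2(CPM + 10). They were Marveld1, Mrvi1, Tbx15, Prkg1, Pde3a, Mustn1, Foxs1 and Npy1r, with r from 0.927 to 0.956. Marveld1 was at 358 CPM in smooth muscle-like and 71.7 CPM in pericyte-like cells, and Mustn1, one of the naming markers, at 1058 and 64.1 CPM. Over the genes most alike, the ratio of these classes ran from 0.918 for Foxs1, at 149.8 and 163.3 CPM, to 16.5 for Mustn1. Among the 10 genes themselves Myl9 was nearest to the sum, with r = 0.975, and Cnn1 farthest, with r = 0.638. Each of the 10 genes is part of that sum, and Myl9 gave 5513 of its 10148 UMIs in pericyte-like cells, Cnn1 only 1. The smooth muscle-like and pericyte-like cells entered by subcluster, the groups share libraries, and r is a description.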

How the data were processed

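Cells were captured with 10x Genomics 3' kits, v3 at 1 and 24 h and v3.1 at 12 h per the labels, though the study's methods name v3.1 alone, from 3 mice per those methods. The authors deposited 1 table of raw UMI counts for 32285 genes and all barcodes, made with Cell Ranger 5 on mm10 per the submitters' processing notes and aggregated over the 6 libraries with depth normalization, in which reads of deeper libraries may have been thinned.

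Barcodes were kept as cells above 0.1 times the 99th percentile of the deepest 3000 barcodes of a library, with at least 200 genes and at most 10% mitochondrial UMIs. This left 17357 cells, while the limits on genes and mitochondrial UMIs alone left 19864. Log-normalized counts of 2000 variable genes, without the 10 genes and the pathway lists, were reduced to 30 components (15 for mural cells) and clustered with leidenalg 0.10.2 (20 neighbours, resolution 0.8, seed 1) in Python 3.11.15 with numpy 2.4.6, scipy 1.17.1 and scikit-learn 1.9.0. Clusters were named from marker lists by rules set after seeing the data. Doublets were called within each library by comparison with simulated doublets (1.78% of cells) and kept, and a cluster in which most cells were called was left unnamed.

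Levels are CPM of summed UMIs with exact 95% Poisson intervals, ratios have exact conditional binomial intervals, and shares have Clopper-Pearson intervals. No cell was shallower than 1000 UMIs, the depth used for thinning. Genes with at least 10 UMIs in a comparison were compared, and a count of 0 was set against a floor of 3 counts over the class. Named genes were the 10 genes, for each pathway list the 2 genes with the highest and the 2 with the lowest ratio, and the 8 genes most like the sum. The members and lists were chosen with earlier results of these data known. The ratio and interval code was tested on simulated data. Alternatives covered the cell call, clustering, doublets, thinning, averaging and left-out libraries. Coordinates are from GENCODE vM21 (GRCm38), which held 32158 of the 32285 gene IDs, and promoters from RefSeq (GRCm38.p6).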

Additional observations from a re-analysis of the deposited data

How the results depend on the processing

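All 10 genes were at least 2 times higher in smooth muscle-like than in pericyte-like cells under every alternative run. The ratio of the summed genes, 13.3, was 13.7 as a mean of the CPM of single cells, 14.1 with every cell thinned to 1000 UMIs, 15.7 with classes from the clustering of all cells, 14.4 with the 10 genes and the lists allowed in the clustering, 16.5 and 15.3 at resolutions 0.4 and 1.2, 13.9 without called doublets and 16.4 with all barcodes of at least 200 features. Leaving out each library in turn gave 13 to 13.9. The ratio of pericyte-like to fibroblast-like cells, 5.02, was 3.52 with classes from all cells, 3.87 and 4.18 at the other resolutions, 3.90 with all barcodes of at least 200 features, and 4.15 to 7.24 with each library left out. Alternatives chosen after seeing the data gave 18.3 and 3.66 for these ratios without mural subclusters 4 and 7, 13 for the first without libraries 1 and 2, and 7.66 for the second without the fibroblast-like cell of most UMIs.

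No ratio of a single gene between the classes changed direction over 178 values. The range was 3.14 to 3.69 for Myl9, 4.64 to 5.72 for Mylk, 3.96 to 5.59 for Des, 17.2 to 31.4 for Tpm2, 11.5 to 31.2 for Lmod1 and 22.3 to 64.8 for Myh11. It was 41.8 to 1991 for Acta2, 57.4 to 3765 for Tagln and 62.2 to 3089 for Pln, with the highest values where subclusters 4 and 7 were left out. A mean of single-cell CPM gives no value for the shares of cells, and the count without a minimum of UMIs bears only on the number of genes called. No paired analysis was possible because the libraries carry no group and each group has 1 library. The number of cells limits the smooth muscle-like values of libraries 1 and 2, and no comparison of hemisphere or time was made. Left-out libraries for the subclusters and small classes, also chosen after seeing the data, are given beside those values.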
